A study of Mus musculus with 28 samples.

Results

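Leukocytes of MC38 tumours taken at day 12 from mice whose regulatory T cells lack Nrp1 were set against the same cells from control mice. The arrays were chosen by their titles, 3 named MC38_d12_CD45+_Nrp1 and 3 named MC38_d12_CD45+_FYC, which makes 6 of the 28 arrays of the series. The first group, called Nrp1-deleted here, came from Nrp1L/LFoxp3Cre-YFP hosts, which carry floxed Nrp1 alleles and express Cre recombinase with YFP from Foxp3. The second, called control, came from Foxp3Cre-YFP hosts, which carry the same Cre-YFP and no floxed Nrp1 in their label. MC38 is a colon carcinoma line of C57BL/6 mice. Cells bearing CD45, the surface phosphatase of haematopoietic cells, were sorted from the tumours and lysed without culture, so cells of the tumour itself and of its stroma should be few. The remaining arrays of the series cover MC38 tumours at days 6 and 18 and B16.F10 melanomas at 3 times. Cre driven by Foxp3 acts in Foxp3-expressing cells, a minority of sorted leukocytes, while the arrays measured RNA of all of them. The labels used here give no age and do not say whether tumours were pooled or whether the 3 arrays of a group are 3 mice. P-values therefore measure only the spread between arrays of a group, which may be technical. That spread was estimated for each gene over all 28 arrays in their 12 groups, so it can differ from the spread among these 6.

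Regulatory T cells (Treg) are CD4+ T cells that depend on the transcription factor Foxp3 and restrain other leukocytes, including those that enter tumours. Neuropilin-1, the product of Nrp1, is a surface co-receptor for semaphorins and for growth factors of the VEGF family. On mouse Treg, binding of semaphorin 4A to neuropilin-1 is known to help these cells keep their suppressive state in tumours, and macrophages and dendritic cells also make the receptor.

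Values are the deposited log2 expression values, and differences are Nrp1-deleted minus control on that log2 scale, with the standard error (SE) of the fit after the ± sign. A gene was called higher or lower at an adjusted p under 0.05 by limma over 17097 genes. A level under 3.64, the median of all values in the table, is called dim here. Across probe sets, arrays correlated at 0.9885 to 0.9915 within the Nrp1-deleted group, at 0.9877 to 0.9905 within the control group and at 0.9681 to 0.9842 between the groups. Ptprc, which encodes CD45 and checks the sort, lay at 12.09, 11.95 and 12.07 on Nrp1-deleted arrays and at 11.78, 11.89 and 11.51 on control arrays, and rose by 0.31 ± 0.07 (adjusted p = 0.00885). The Ptprc call ended without control replicate 3. Control arrays differed among themselves in lymphocyte RNA. The mean of 15 T cell genes was 7.32, 7.17 and 8.27 on Nrp1-deleted arrays 1, 2 and 3, against 6.62, 7.46 and 5.67 on control arrays 1, 2 and 3. Control replicate 2 therefore lay above Nrp1-deleted replicates 1 and 2, and control replicate 3 lay lowest.

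Nrp1 itself had log2 values of 9.34, 9.30 and 9.18 on Nrp1-deleted arrays, against 9.62, 9.64 and 9.53 on control arrays. Every Nrp1-deleted array lay below every control array, yet the difference of -0.32 ± 0.18 did not pass (adjusted p = 0.308). The 2 other probe sets of Nrp1 gave differences of -0.39 and -0.35. With only these 6 arrays in the fit, the same difference had an adjusted p of 0.042. The position of the probe sets relative to the floxed part of the gene is unknown here, and macrophages make Nrp1 too, so the level in mixed leukocytes checks the genotype only weakly. Foxp3 was dim in both groups, at 2.98 to 3.06 on Nrp1-deleted arrays and 2.70 to 3.44 on control arrays, and shows nothing about the number of Treg.

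At day 12 the leukocyte fraction of Nrp1-deleted hosts held far less RNA of collagens and other matrix genes, less RNA of cholesterol synthesis genes and of some fatty acid desaturases, and more RNA of some T cell and cytotoxic genes. Of 17097 genes, 1468 were called (8.59%), 635 higher (3.71%) and 833 lower (4.87%). Among them 277 differed by at least 2-fold (1.62% of genes), 104 higher (0.608%) and 173 lower (1.01%). The 3 arrays of a group did not overlap with the 3 of the other for 4349 genes (25.4%), with 1433 higher (8.38%) and 2916 lower (17.1%). The median difference over all genes was -0.07. For the gene lists below, these shares of all genes are the background of each count. The balance of directions depends on scaling: after cyclic loess 56.6% of calls were higher, against 43.3% in the deposited scale. Leaving out 1 array left 733 to 1552 calls, and the count was 733 without control replicate 3. It was 873 without Nrp1-deleted replicate 1 and 873 without Nrp1-deleted replicate 3.

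**Figure D1:**
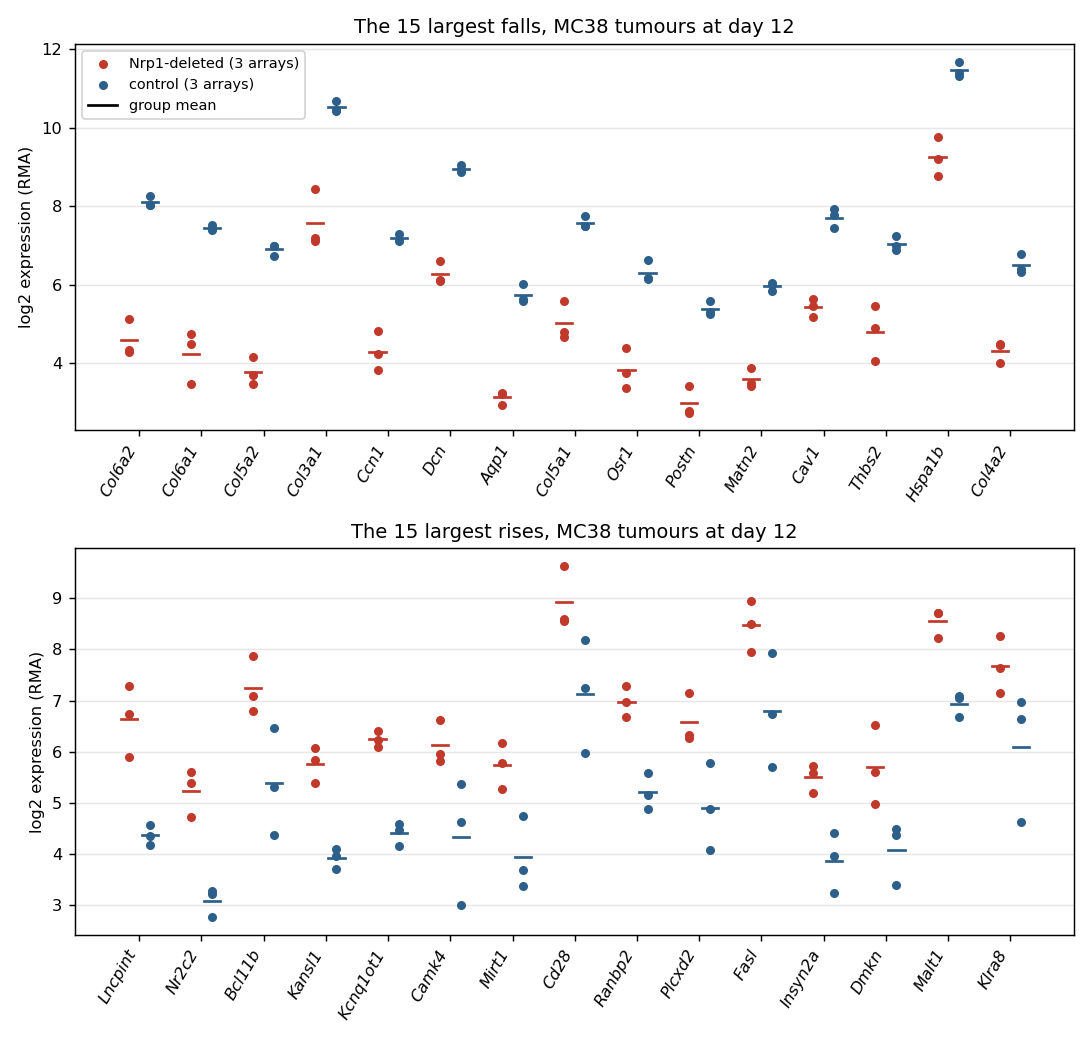
Log2 expression (y axis) of the 15 genes with the largest falls (top) and the 15 with the largest rises (bottom) on each array, with Nrp1-deleted arrays in red left of control arrays in blue and a bar at each group mean. The groups are apart in every gene shown, since the naming rule required it. Control arrays of most falling genes lie close together, while those of Cd28, Bcl11b, Camk4 and Klra8 are spread widely.

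Collagen genes had the largest falls. Col6a2, a chain of the microfibril-forming collagen VI, had log2 values of 5.12, 4.34 and 4.28 on Nrp1-deleted arrays, against 8.02, 8.02 and 8.26 on control arrays. All 3 Nrp1-deleted arrays lay far below the control arrays, and the difference of -3.52 ± 0.25 is an 11.5-fold lower level (adjusted p = 1.35e-08). Its partner chain Col6a1 had 4.74, 3.47 and 4.48 on Nrp1-deleted arrays, against 7.41, 7.40 and 7.52 on control arrays, a difference of -3.21 ± 0.26 or 9.26-fold (adjusted p = 8.96e-08). Collagen V, which helps to start collagen fibrils, fell in both measured chains. Col5a2 had 4.16, 3.46 and 3.69 on Nrp1-deleted arrays, against 6.98, 6.73 and 6.98 on control arrays (-3.13 ± 0.29, adjusted p = 7.18e-07). Col5a1 had 5.59, 4.67 and 4.80 on Nrp1-deleted arrays, against 7.48, 7.49 and 7.75 on control arrays (-2.56 ± 0.26, adjusted p = 2.29e-06). The fibrillar collagen gene Col3a1 was the brightest of these, at 8.45, 7.11 and 7.18 on Nrp1-deleted arrays, against 10.43, 10.44 and 10.68 on control arrays (-2.94 ± 0.35, adjusted p = 1.49e-05). No group overlapped the other in any of the 5 collagens, and Nrp1-deleted replicate 1 was the highest of its group in each of them. Other probe sets gave -2.52 for Col6a2 and -2.20 for Col3a1, but -0.50 for Col5a2 and -1.36 and -0.015 for Col5a1.

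Dcn, which encodes the collagen-binding proteoglycan decorin, had 6.60, 6.11 and 6.09 on Nrp1-deleted arrays, against 8.88, 9.05 and 8.94 on control arrays (-2.69 ± 0.24, adjusted p = 4.47e-07). Postn, the gene for the matrix protein periostin, was dim on all 3 Nrp1-deleted arrays, at 2.74, 2.77 and 3.42, against 5.24, 5.58 and 5.29 on control arrays (-2.40 ± 0.27). Both genes are commonly used as markers of fibroblasts, and in both the groups were well apart. Thbs2, a thrombospondin of the matrix, fell by 2.24 ± 0.28, Serpinf1, the secreted factor PEDF, by 1.97 ± 0.24, and Mmp2, a gelatinase, by 1.81 ± 0.25. Pcolce, an enhancer of procollagen processing, fell by 1.52 ± 0.21.

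Of the 18 genes of a fibroblast list, 11 fell and none was higher, with a median difference of -1.89. Every 1 of the 18 was below 0 (16 after cyclic loess, when Fap and Fbln2 lay above), but so were 10756 of all genes, and the 7 members that were not called were at low levels in both groups. The mean of the list was 4.34, 4.03 and 3.97 on Nrp1-deleted arrays, against 5.70, 5.73 and 5.78 on control arrays, so the control arrays were nearly equal and the Nrp1-deleted arrays all lower. Leaving out any 1 array left 11 or 12 calls. Several defining fibroblast genes were not among the falls. Col1a1 was at 3.37, 3.04 and 3.19 on Nrp1-deleted arrays and 3.19, 3.69 and 3.31 on control arrays, and Col1a2 was at 2.36, 2.94 and 2.32 on Nrp1-deleted arrays and 2.60, 2.71 and 2.69 on control arrays. Lum, Fap, Fbln2 and both platelet-derived growth factor receptors Pdgfra and Pdgfrb were dim on Nrp1-deleted arrays and at most 3.78 on control arrays. Fibroblasts lack CD45 and should be removed by the sort. In these mixed samples fewer cells of a type and less RNA per cell cannot be told apart, and the part of fibroblast or tumour-cell RNA in these falls was not tested.

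Other matrix genes fell as well. Of 21 measured genes of a matrix and collagen modification list, 8 fell and none rose, with a median of -0.48, and 7 to 9 were called when 1 array was left out. Col4a2, a chain of the basement membrane collagen IV, had 4.47, 3.99 and 4.49 on Nrp1-deleted arrays, against 6.33, 6.79 and 6.39 on control arrays (-2.19 ± 0.23, adjusted p = 3.32e-06). Its partner Col4a1 fell by 2.03 ± 0.23, and Lamb1, a laminin chain, by 1.85 ± 0.32. Sparc, a collagen-binding glycoprotein, had 7.06, 6.25 and 5.90 on Nrp1-deleted arrays, against 8.34, 8.69 and 8.31 on control arrays (-2.04 ± 0.35, adjusted p = 0.000758). The collagen chaperone gene Serpinh1 (-1.94 ± 0.38), the secreted glycoprotein gene Fstl1 (-1.95 ± 0.27), the lysyl hydroxylase gene Plod2 (-1.16 ± 0.28) and the biglycan gene Bgn (-1.05 ± 0.27) fell too. In contrast Fn1, the fibronectin gene that macrophages also express, was bright and did not pass, at 11.73, 11.68 and 11.10 on Nrp1-deleted arrays and 11.17, 10.80 and 11.48 on control arrays.

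Of 15 genes for matrix metalloproteinases and their inhibitors, 3 fell and none rose (median -0.11). Besides Mmp2 these were Adamts1, a secreted protease (-1.62 ± 0.36), and Mmp9, the gelatinase of neutrophils and macrophages. Mmp9 had 4.59, 4.50 and 4.55 on Nrp1-deleted arrays, against 5.94, 5.50 and 7.43 on control arrays (-1.74 ± 0.33, adjusted p = 0.00177), and control replicate 3 stood above the other control arrays. The same array was high in Ctsk, which encodes the collagen-degrading protease cathepsin K. Ctsk had 4.77, 3.86 and 4.29 on Nrp1-deleted arrays, against 6.75, 4.12 and 8.22 on control arrays, so the groups overlapped although the gene was called (-2.06 ± 0.57, adjusted p = 0.0255), a call that ended without control replicate 1 or 3 or Nrp1-deleted replicate 2 or 3.

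A group of genes tied to cell adhesion and to the mechanosensitive co-activators YAP and TAZ moved the same way. Of 14 measured members, 6 fell and none rose, with a median of -0.88, and 4 to 7 were called when 1 array was left out. Ccn1, a matricellular protein and a textbook target of YAP, had 4.81, 4.22 and 3.82 on Nrp1-deleted arrays, against 7.11, 7.29 and 7.14 on control arrays (-2.90 ± 0.36, adjusted p = 2.33e-05). Cav1, the main protein of caveolae, had 5.63, 5.44 and 5.18 on Nrp1-deleted arrays, against 7.43, 7.77 and 7.92 on control arrays (-2.29 ± 0.24, adjusted p = 3.28e-06). Wwtr1, which encodes TAZ, fell by 1.88 ± 0.34, and Fermt2, the integrin adaptor kindlin-2, by 2.08 ± 0.31. Other probe sets gave -1.20 and -1.03 for Wwtr1, but only -0.30 and -0.15 for Fermt2. Tm4sf1, a tetraspan membrane protein, fell by 1.67 ± 0.51 and Ccn2, a relative of Ccn1, by 0.81 ± 0.20. Leaving out any 1 array ended the Tm4sf1 call. Yap1 itself (-0.93, adjusted p = 0.0615) and its DNA-binding partner Tead1 (-0.82, adjusted p = 0.0956) did not pass, though their groups did not overlap.

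TEAD factors, through which YAP and TAZ reach DNA, are known to recognise GGAATG. On either strand these letters occurred in 8 of 15 promoters of the list's members (53.3%), belonging to 7 of the 12 members that matched the RefSeq promoter table, against 14.7% of all 32851 promoters of that table. Each promoter spans 250 bases before and 50 bases after the start of a gene. In the fibroblast list 2 of 13 promoters (15.4%) held them. The YAP/TAZ list was picked for ties to these factors, so its share tests nothing about the falls. Of its called members, Ccn1 and Wwtr1 held the letters, while Cav1, Fermt2 and Tm4sf1 did not. Of those not called, Yap1, Amotl2, Vcl, Lats2 and Ankrd1 held them, while Itga5 and Itgb5 did not. A match is a description of these letters and does not show binding. The promoter of Ccn1, the called member with a single listed promoter that holds the letters, lies at chr3:145649936-145650235 on the minus strand of GRCm38.p6 (RefSeq) and is shown 5′ to 3′ on its own strand, with the match in capitals, here as its reverse complement.
Ccn1: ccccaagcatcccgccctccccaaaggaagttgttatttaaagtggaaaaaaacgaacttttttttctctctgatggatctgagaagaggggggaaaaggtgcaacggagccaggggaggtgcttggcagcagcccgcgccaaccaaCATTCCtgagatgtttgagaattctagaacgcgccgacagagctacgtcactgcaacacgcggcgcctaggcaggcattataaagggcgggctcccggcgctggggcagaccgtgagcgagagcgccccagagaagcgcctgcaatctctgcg

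The remaining large falls were of mixed kinds. Aqp1, a water channel, was dim on Nrp1-deleted arrays at 3.23, 2.94 and 3.22, against 5.63, 6.02 and 5.59 on control arrays (-2.62 ± 0.24, adjusted p = 4.89e-07). Osr1, a zinc finger transcription factor known from mesenchymal cells, fell by 2.48 ± 0.24, and Matn2, a matrix adaptor protein, by 2.37 ± 0.25. Hspa1b, a heat-inducible HSP70 gene, had 9.77, 9.19 and 8.77 on Nrp1-deleted arrays, against 11.39, 11.32 and 11.69 on control arrays (-2.22 ± 0.33, adjusted p = 0.000172). It was the only call among 19 measured immediate early and stress genes, whose median was -0.24.

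Markers of other CD45-negative cells gave a mixed picture. Of 11 epithelial and tumour cell genes 1 was called, the homeobox gene Rhox5, at 6.49, 5.97 and 5.63 on Nrp1-deleted arrays and 7.64, 8.20 and 7.96 on control arrays (-1.90 ± 0.35, adjusted p = 0.00131). Its groups were apart, while Krt8, Krt18, Krt7, Cldn7 and Cldn3 were dim on every array. Cdh1 was not dim, at 7.65, 8.13 and 7.74 on Nrp1-deleted arrays and 7.61, 6.89 and 7.72 on control arrays. It had the highest difference of the list, 0.43, with overlap and no call. The mean of this list was 3.62 to 3.73 on Nrp1-deleted arrays, lower than the lowest control array at 3.79. Rhox5 counts in that mean and had the lowest difference of the list. The list median was -0.11, near the -0.07 of all genes, with 8 members below 0 and 3 above. Groups were apart in 1 member in each direction. Of 12 endothelial genes, 1 rose, against 3.71% of all genes: Pecam1 (0.90 ± 0.24), a gene that leukocytes also express. Its call ended without control replicate 3 or Nrp1-deleted replicate 2 or 3. The endothelial list mean was 3.74 to 3.88 on Nrp1-deleted arrays and 3.69 to 3.85 on control arrays. Of 13 melanocytic genes none was called by limma (1 at an unadjusted p under 0.05). With these markers moving by different amounts, their part in the falls was not tested.

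**Figure D2:**
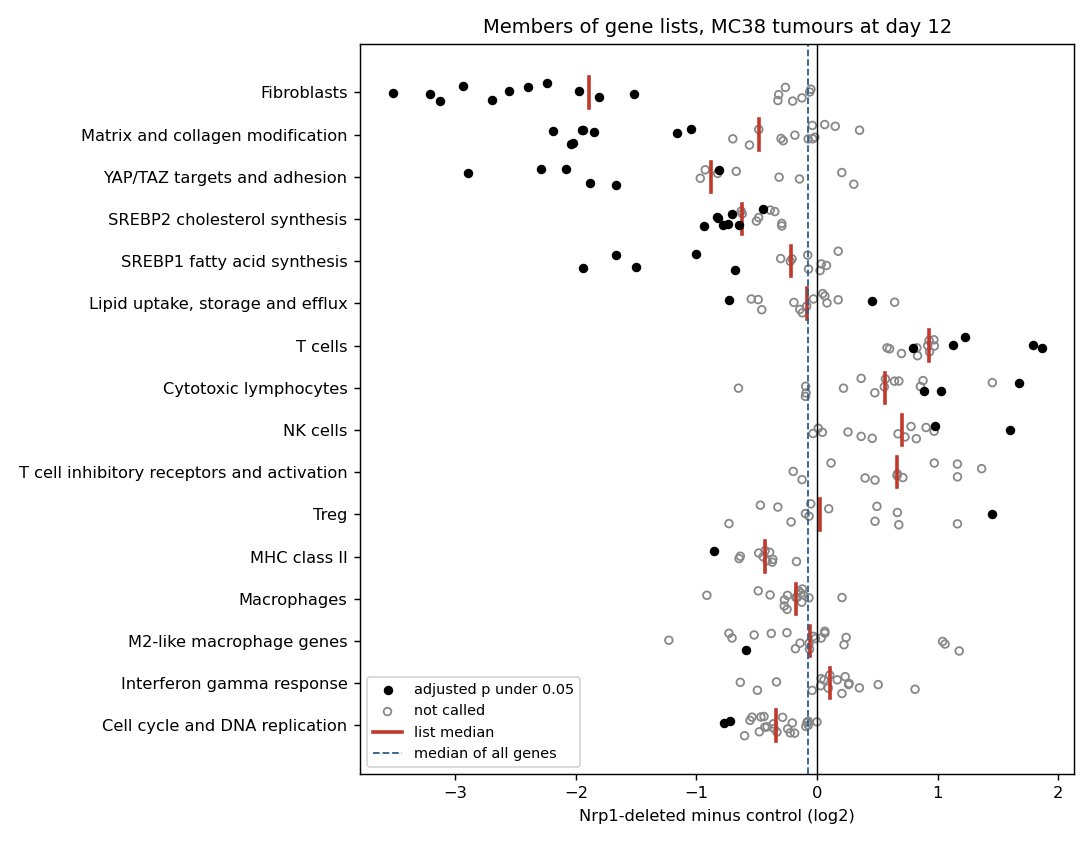
Nrp1-deleted minus control difference (log2, x axis) of each measured member of 16 gene lists, with filled points for called members, open points for others, red bars at list medians and a dashed blue line at the median of all genes, -0.07. Fibroblast members split between large falls and values near 0, all 16 SREBP2 members lie below 0, and all 15 T cell members lie above 0.

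Genes of cholesterol synthesis fell. The enzymes of this pathway turn acetyl-CoA into sterols, and their genes are switched on together by the transcription factor SREBP2 when membranes are poor in sterol. All 16 measured members of the list lay below 0, as did 10756 of all 17097 genes, with a median of -0.62. Of these members 8 fell, against 4.87% of all genes, and none rose. Groups did not overlap in 10, all lower, against 17.1% of all genes. Leaving out 1 array left 5 to 10 calls, with 5 without control replicate 3. The mean of the list was 6.34, 6.15 and 6.04 on Nrp1-deleted arrays, against 6.70, 6.53 and 7.08 on control arrays.

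The early steps make mevalonate and convert it to isoprenoids. Mvk, mevalonate kinase, had 5.29, 5.14 and 5.32 on Nrp1-deleted arrays, against 6.11, 5.64 and 6.23 on control arrays (-0.74 ± 0.19, adjusted p = 0.0169). Mvd, the decarboxylase of that branch, had 5.11, 5.29 and 4.81 on Nrp1-deleted arrays, against 5.97, 5.58 and 6.13 on control arrays (-0.82 ± 0.17, adjusted p = 0.00286). Fdps, farnesyl diphosphate synthase, had 8.33, 7.86 and 7.59 on Nrp1-deleted arrays, against 8.64, 8.47 and 9.16 on control arrays (-0.83 ± 0.18, adjusted p = 0.00475). The groups did not overlap in any of the 3 genes, and control replicate 3 was the highest array in each.

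The next enzymes commit isoprenoids to sterols. Fdft1, squalene synthase, had 7.18, 6.88 and 6.86 on Nrp1-deleted arrays, against 7.66, 7.53 and 8.07 on control arrays (-0.78 ± 0.13, adjusted p = 0.000533). Sqle, squalene epoxidase, had 7.49, 6.81 and 6.61 on Nrp1-deleted arrays, against 7.80, 7.71 and 8.22 on control arrays, with the largest difference of the list at -0.94 ± 0.20 (adjusted p = 0.00401). In both, Nrp1-deleted replicate 1 came closest to the control arrays. Nsdhl, a later sterol dehydrogenase, was the tightest, at 6.62, 6.62 and 6.68 on Nrp1-deleted arrays and 7.29, 7.19 and 7.38 on control arrays (-0.65 ± 0.10, adjusted p = 0.000354). Cyp51, lanosterol demethylase, fell by 0.70 ± 0.19, and Stard4, a sterol carrier, by 0.45 ± 0.13. Averaging probe sets ended the calls of Cyp51 (-0.34, adjusted p = 0.257) and Mvk (-0.63, adjusted p = 0.0546), and without control replicate 3 those of Mvk, Cyp51 and Stard4 ended. The factor's own gene Srebf2 was at 7.05, 6.61 and 6.89 on Nrp1-deleted arrays and 6.83, 7.22 and 7.36 on control arrays, with overlap and no call (-0.29, adjusted p = 0.19). Hmgcs1, which makes the substrate of the rate-limiting reductase, was at 3.29, 3.23 and 3.52 on Nrp1-deleted arrays and 4.09, 3.56 and 4.27 on control arrays (-0.63, adjusted p = 0.113).

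**Figure D3:**
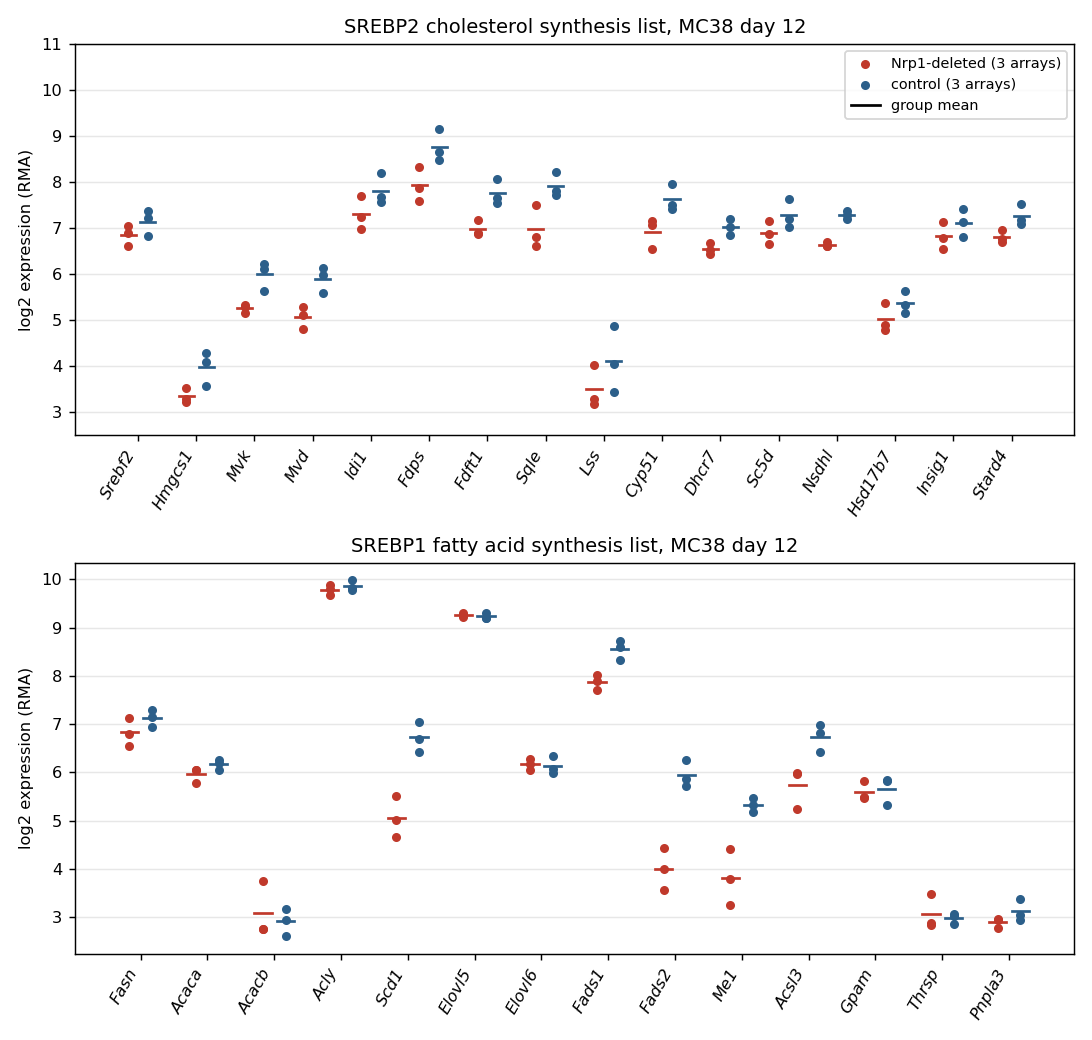
Log2 expression (y axis) of the 16 measured cholesterol synthesis genes (top) and the 14 measured fatty acid synthesis genes (bottom) on each array, with Nrp1-deleted arrays in red left of control arrays in blue and a bar at each group mean. Small differences run through the whole upper list, such as -0.65 for Nsdhl and -0.94 for Sqle, whereas the lower list holds large falls of Scd1, Fads2, Me1 and Acsl3 beside genes such as Acly and Elovl5 with nearly equal means.

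Promoters of sterol genes are known to pair a sterol regulatory element with a CCAAT box, bound by NF-Y. CCAAT occurred on either strand in 12 of 14 promoters of the list (85.7%), 1 or more for each of the 12 members found in the RefSeq table, against 37.4% of all 32851 promoters. In the fatty acid synthesis list 9 of 14 promoters (64.3%) held it, and in the fibroblast list 4 of 13 (30.8%). Both synthesis lists were picked for ties to SREBP factors, so these shares test nothing about the falls. Srebf2 and Hmgcs1, which were not called, held CCAAT too, and a match does not show binding. TCACNCCAC, the letters of the classic sterol regulatory element of the LDL receptor with 1 open position, occurred in 1 of 14 promoters (7.14%), that of Hmgcs1, against 1.24% of all. That few promoters hold this single spelling says nothing about the factor, since its sites vary. Promoters of 4 members that fell and of Hmgcs1 are shown so that the boxes can be seen in place, from RefSeq on GRCm38.p6, 5′ to 3′ on the gene's strand. Capitals mark CCAAT or its reverse complement ATTGG, and in Hmgcs1 also the TCACNCCAC match. Hmgcs1 lies at chr13:119690101-119690400 on the plus strand with 4 CCAAT matches, Mvk at chr5:114444019-114444318 on the plus strand with 5, and Mvd at chr8:122443373-122443672 on the minus strand with 2. Cyp51 lies at chr5:4104648-4104947 on the minus strand with 1, and Nsdhl at chrX:72918271-72918570 on the plus strand with 4.
Hmgcs1: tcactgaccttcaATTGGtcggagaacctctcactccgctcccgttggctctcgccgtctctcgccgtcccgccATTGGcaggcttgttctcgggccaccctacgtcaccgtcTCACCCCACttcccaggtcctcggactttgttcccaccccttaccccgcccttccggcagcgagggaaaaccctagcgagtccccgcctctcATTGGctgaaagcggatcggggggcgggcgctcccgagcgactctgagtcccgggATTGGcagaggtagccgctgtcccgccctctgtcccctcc
Mvk: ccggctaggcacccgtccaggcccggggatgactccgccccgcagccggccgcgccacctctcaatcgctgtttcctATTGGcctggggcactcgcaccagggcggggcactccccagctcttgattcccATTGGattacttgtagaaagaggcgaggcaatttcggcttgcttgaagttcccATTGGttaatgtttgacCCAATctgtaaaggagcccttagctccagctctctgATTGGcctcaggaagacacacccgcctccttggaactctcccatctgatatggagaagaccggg
Mvd: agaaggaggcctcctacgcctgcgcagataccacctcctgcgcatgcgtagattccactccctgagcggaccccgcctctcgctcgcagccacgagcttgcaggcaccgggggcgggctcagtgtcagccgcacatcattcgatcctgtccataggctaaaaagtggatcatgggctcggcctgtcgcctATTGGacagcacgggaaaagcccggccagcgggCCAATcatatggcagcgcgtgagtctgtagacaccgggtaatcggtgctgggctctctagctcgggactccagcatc
Cyp51: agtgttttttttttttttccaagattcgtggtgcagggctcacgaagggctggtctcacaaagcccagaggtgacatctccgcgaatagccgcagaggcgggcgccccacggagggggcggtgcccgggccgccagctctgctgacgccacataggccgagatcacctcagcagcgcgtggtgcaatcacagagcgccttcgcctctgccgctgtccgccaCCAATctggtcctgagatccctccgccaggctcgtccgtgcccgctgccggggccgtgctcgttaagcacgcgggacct
Nsdhl: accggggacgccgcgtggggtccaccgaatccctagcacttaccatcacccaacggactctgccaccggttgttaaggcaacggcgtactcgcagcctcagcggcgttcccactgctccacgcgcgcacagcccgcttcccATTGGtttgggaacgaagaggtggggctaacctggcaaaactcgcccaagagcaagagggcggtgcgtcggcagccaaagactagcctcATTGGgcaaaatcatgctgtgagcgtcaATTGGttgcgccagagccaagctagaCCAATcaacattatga

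Fatty acid synthesis genes, known targets of SREBP1, were split. Of 14 measured, 5 fell and none rose, with a median of -0.21, and 3 were called without control replicate 1, control replicate 3 or Nrp1-deleted replicate 3. Fads2, the delta-6 desaturase of polyunsaturated fatty acids, had 4.43, 4.01 and 3.57 on Nrp1-deleted arrays, against 5.86, 5.72 and 6.27 on control arrays, a 3.84-fold lower level (-1.94 ± 0.22, adjusted p = 9.9e-06). Scd1, the desaturase that makes monounsaturated fatty acids, had 5.50, 5.02 and 4.66 on Nrp1-deleted arrays, against 6.43, 7.05 and 6.69 on control arrays, 3.17-fold lower (-1.66 ± 0.28, adjusted p = 0.000648). Me1, the malic enzyme that supplies NADPH, had 4.41, 3.79 and 3.26 on Nrp1-deleted arrays, against 5.17, 5.32 and 5.46 on control arrays (-1.50 ± 0.26, adjusted p = 0.000805). The groups were apart in each, and Nrp1-deleted replicate 3 was the lowest array in each. Other probe sets gave -0.98 and -0.39 for Fads2, -0.41 for Scd1 and -1.19 for Me1. Groups overlapped in the probe sets that gave -0.39 and -0.41. Acsl3, an acyl-CoA synthetase, fell by 1.01 ± 0.26, and Fads1, the delta-5 desaturase, by 0.68 ± 0.18. Averaging probe sets ended the calls of Acsl3 (-0.51, adjusted p = 0.128) and Fads1 (-0.31, adjusted p = 0.229).

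The enzymes that build the fatty acid chain were not called. Fasn, fatty acid synthase, had 7.13, 6.80 and 6.55 on Nrp1-deleted arrays and 6.94, 7.30 and 7.15 on control arrays (-0.30, adjusted p = 0.133). Acaca, acetyl-CoA carboxylase, differed by -0.21 (adjusted p = 0.427), and by 0.24 when its probe sets were averaged. The groups overlapped in both. Of 15 lipid uptake, storage and efflux genes, 1 rose, the cholesterol exporter Abcg1 (0.46 ± 0.13), and 1 fell, the phospholipid transfer protein gene Pltp (-0.73 ± 0.20), and the scavenger receptor Cd36 overlapped (0.06, adjusted p = 0.929). Averaging probe sets ended the Abcg1 call (adjusted p = 0.171), array weights ended it too (adjusted p = 0.0625), and cyclic loess ended the Pltp call (adjusted p = 0.0684). Both ended also without control replicate 3 or Nrp1-deleted replicate 1.

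T cell genes lay higher, but the spread among control arrays was wide. Bcl11b, a transcription factor that T cells need for their identity, had 7.09, 6.79 and 7.87 on Nrp1-deleted arrays, against 5.31, 6.47 and 4.37 on control arrays (1.87 ± 0.34, adjusted p = 0.00114). Cd28, the co-stimulatory receptor, had 8.60, 8.55 and 9.63 on Nrp1-deleted arrays, against 7.24, 8.19 and 5.97 on control arrays (1.79 ± 0.35, adjusted p = 0.00211). Skap1, an adaptor of T cell receptor signalling, had 7.19, 6.99 and 8.06 on Nrp1-deleted arrays, against 6.09, 6.88 and 5.59 on control arrays (1.23 ± 0.25, adjusted p = 0.00347). In all 3 the groups did not overlap, control replicate 2 came close to the lowest Nrp1-deleted array, and control replicate 3 was lowest. Their SE rests on the spread over all 28 arrays. The 3 control arrays alone had a standard deviation of 1.05 for Bcl11b and 1.11 for Cd28. Cd247, the zeta chain of the T cell receptor complex, rose by 1.13 ± 0.35 and Ubash3a, a brake on receptor signalling, by 0.80 ± 0.21. Averaging probe sets ended the calls of Ubash3a (adjusted p = 0.0819) and Cd247 (adjusted p = 0.139). Both ended also without control replicate 1, control replicate 3 or Nrp1-deleted replicate 3.

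Of 15 measured T cell genes, 5 rose and none fell, with a median of 0.93. All 15 lay above 0, against 6341 of all 17097 genes, but in 10 of them the groups overlapped. Cd3e, a chain of the receptor complex itself, had 7.34, 7.08 and 8.22 on Nrp1-deleted arrays and 6.67, 7.79 and 6.08 on control arrays, and did not pass (0.70, adjusted p = 0.164). The count rests on single control arrays: 14 members were called without control replicate 2 and 3 without control replicate 3. The count was 3 also without control replicate 1 and without Nrp1-deleted replicate 3.

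**Figure D4:**
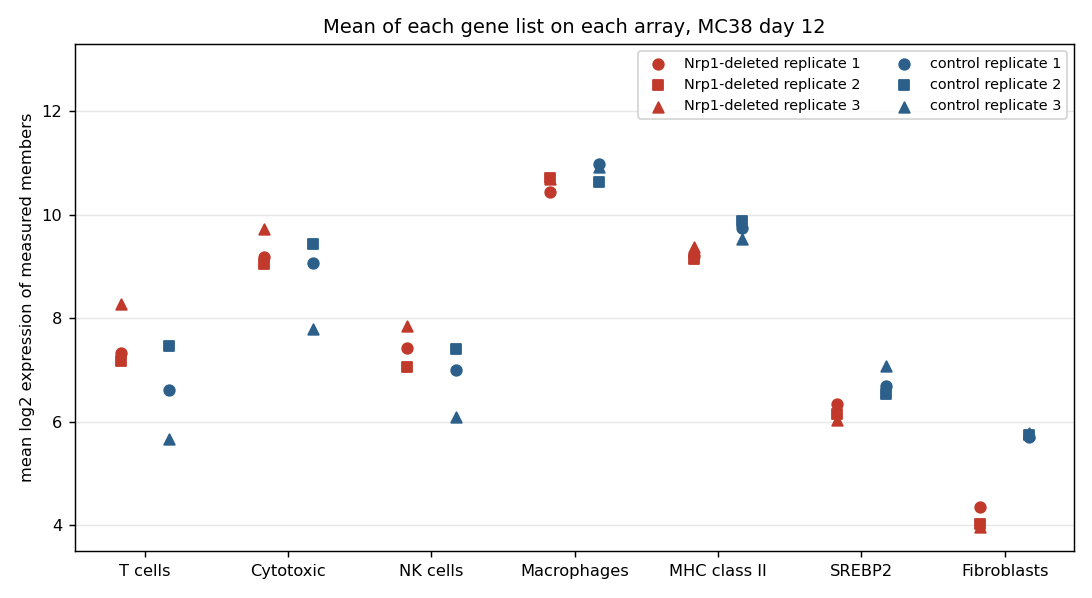
Mean log2 expression (y axis) of the measured members of 7 gene lists on each array, with Nrp1-deleted arrays in red left of control arrays in blue and 1 symbol for each replicate number. T cell, cytotoxic and NK means overlap between groups, with control replicate 3 lowest, while fibroblast means lie at 3.97 to 4.34 on Nrp1-deleted arrays and 5.70 to 5.78 on control arrays.

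Cytotoxic and natural killer (NK) genes showed the same spread. Of 17 cytotoxic lymphocyte genes, 3 rose (median 0.57), 7 without control replicate 2 and 1 without control replicate 1, control replicate 3, or Nrp1-deleted replicate 1 or 3. Fasl, the death ligand, had 8.50, 7.96 and 8.95 on Nrp1-deleted arrays, against 6.75, 7.94 and 5.70 on control arrays (1.68 ± 0.33, adjusted p = 0.00228). Its groups nearly met at Nrp1-deleted replicate 2 and control replicate 2. Gzma, the protease granzyme A, had 11.22, 10.48 and 11.18 on Nrp1-deleted arrays, against 9.84, 10.77 and 9.17 on control arrays (1.03 ± 0.27, adjusted p = 0.0171), with overlap. Il2rb, a receptor chain for interleukins 2 and 15, rose by 0.89 ± 0.28 (adjusted p = 0.0489), a call that 8 of the 12 alternatives over all 6 arrays ended. Granzyme B and perforin, the main killing proteins, were not called, with Gzmb at 11.18, 11.05 and 12.07 on Nrp1-deleted arrays and 11.41, 11.95 and 10.29 on control arrays (0.22, adjusted p = 0.732) and Prf1 at a difference of 0.37 (adjusted p = 0.609). Ifng, the gene for interferon gamma, had 8.99, 8.66 and 9.50 on Nrp1-deleted arrays and 8.33, 9.65 and 7.25 on control arrays (0.64, adjusted p = 0.268). In Gzmb and Ifng control replicate 2 lay near the top of all 6 arrays.

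Among 14 NK genes 2 rose (median 0.70), the receptors Klra8 (1.60 ± 0.44, adjusted p = 0.0258) and Klrd1 (0.98 ± 0.26, adjusted p = 0.0205). Without control replicate 2 there were 8 calls, and without control replicate 3 or Nrp1-deleted replicate 3 there were none. Of 12 inhibitory receptor and activation genes none was called by limma (7 at an unadjusted p under 0.05, all higher), though 6 were called without control replicate 2. Pdcd1, which encodes PD-1, had 7.25, 7.42 and 8.27 on Nrp1-deleted arrays and 6.67, 7.93 and 5.42 on control arrays (0.97, adjusted p = 0.123). Cd8a, which marks CD8+ T cells, had 8.33, 8.44 and 9.38 on Nrp1-deleted arrays and 7.93, 9.20 and 6.92 on control arrays (0.70, adjusted p = 0.275). Of 10 CD4 and CD8 lineage genes, 2 rose, the T helper factors Tbx21 (1.54 ± 0.39) and Gata3 (1.18 ± 0.31), both with overlap. The number was 5 without control replicate 2 and 0 without control replicate 3 or Nrp1-deleted replicate 3. The 2 members whose groups were apart lay lower and were not called, against 17.1% of all genes apart and lower. These were Zbtb7b (-0.46, adjusted p = 0.063) and Bcl6 (-0.41, adjusted p = 0.113).

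Transcription factors of quiescent and memory T cells also lay higher. Of 7 measured members of that list, 3 rose, and 3 or 4 did without any 1 array. Bach2, a repressor that limits effector differentiation, had 7.09, 7.09 and 7.31 on Nrp1-deleted arrays, against 6.11, 5.94 and 5.36 on control arrays (1.36 ± 0.21, adjusted p = 0.000247). Foxp1, a factor of naive lymphocytes, had 8.96, 9.01 and 9.11 on Nrp1-deleted arrays, against 8.39, 8.48 and 8.34 on control arrays (0.63 ± 0.12, adjusted p = 0.00123). Satb1, a chromatin organiser of developing T cells, had 8.63, 8.48 and 9.44 on Nrp1-deleted arrays, against 7.42, 8.17 and 6.64 on control arrays (1.44 ± 0.28, adjusted p = 0.00219). The groups were apart in all 3. The 7 probe sets of Foxp1 disagreed, from -0.45 to 2.46, and their mean of 0.55 was still called. Of the 3 probe sets of Bach2, 1 dim one gave -0.05 and the others 1.30 and 1.36, while those of Satb1 gave 1.13 to 1.74.

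Of 14 measured Treg genes 1 rose, against 3.71% of all genes: Ikzf2, which encodes Helios, a factor that Treg and other T and NK cells make. It had 8.17, 7.88 and 9.38 on Nrp1-deleted arrays, against 7.44, 7.33 and 6.32 on control arrays (1.45 ± 0.29, adjusted p = 0.00235), and averaging probe sets ended the call (0.68, adjusted p = 0.0949). Ctla4, an inhibitory receptor of Treg and activated T cells, overlapped (1.17, adjusted p = 0.108), and the list median was 0.02. Among 12 T helper cytokines none was called by limma (4 at an unadjusted p under 0.05). Il17a, the cytokine of Th17 and gamma delta T cells, was split, with 8.06, 5.36 and 7.34 on Nrp1-deleted arrays and 4.24, 6.02 and 4.48 on control arrays (2.01 ± 0.64, adjusted p = 0.0545).

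Macrophage genes overlapped between groups in their mean. The mean of the macrophage list was 10.45, 10.70 and 10.68 on Nrp1-deleted arrays and 10.98, 10.63 and 10.91 on control arrays. Of 16 measured macrophage genes none was called by limma, although 15 lay below 0 (median -0.17), and 1 had an unadjusted p under 0.05. Adgre1, which encodes F4/80, had 10.38, 10.58 and 10.54 on Nrp1-deleted arrays and 10.93, 10.72 and 10.66 on control arrays (-0.27, adjusted p = 0.594). Mrc1, the mannose receptor, had 10.12, 10.57 and 9.93 on Nrp1-deleted arrays and 10.25, 9.30 and 10.41 on control arrays (0.22, adjusted p = 0.828). The 7 of 16 non-overlapping members of the macrophage list, all lower, compare with 17.1% of all genes, and Adgre1 was among them. Mrc1, which is not in that list, overlapped widely. Arg1, arginase 1, was bright on all arrays at 12.05 to 12.61 and did not differ past the threshold (0.24, adjusted p = 0.792). Of 21 M2-like genes 1 fell, the scavenger receptor Marco, which was near the dim level (-0.59 ± 0.18), against 4.87% of all genes, and the call ended without control replicate 1 or 3 or without Nrp1-deleted replicate 1 or 2.

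MHC class II genes, which present antigen to CD4+ T cells, all lay below 0 (median -0.43), as did 10756 of all 17097 genes. Of 11, 1 was called lower, against 4.87% of all genes. Groups were apart in 7, all lower, against 17.1% of all genes. The call was H2-Oa, which regulates peptide loading, at 6.49, 6.05 and 6.25 on Nrp1-deleted arrays and 6.95, 7.37 and 7.04 on control arrays (-0.85 ± 0.17, adjusted p = 0.00225). H2-Ab1, a chain of the presenting molecule I-A, had 12.22, 12.35 and 12.62 on Nrp1-deleted arrays and 12.93, 12.97 and 12.74 on control arrays, apart but not called (-0.48, adjusted p = 0.15). Among 11 mature dendritic cell genes 2 fell, the cytokine subunit Il12b (-1.24 ± 0.35, adjusted p = 0.0266) and the actin bundler Fscn1 (-0.85 ± 0.23, adjusted p = 0.0252). Without 1 array at most 1 of them was called. Of 16 inflammatory macrophage genes 1 fell, again Il12b, and 1 rose, while 11 lay below 0 (median -0.16). The rise was that of Il6, an inflammatory cytokine, at 6.75, 5.97 and 5.89 on Nrp1-deleted arrays and 4.80, 5.05 and 4.61 on control arrays (1.39 ± 0.40, adjusted p = 0.0312). Its call ended without control replicate 1, control replicate 3 or Nrp1-deleted replicate 1.

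Of 11 monocyte genes 2 rose, the integrin chain Itga4 (0.78 ± 0.13, adjusted p = 0.000716) and Plac8 (0.65 ± 0.16), with 1 of them left without control replicate 1, control replicate 3 or Nrp1-deleted replicate 1. All 24 measured cell cycle genes lay below 0 (23 after centring on the 75th percentile), with a median of -0.34. Over all genes 10756 of 17097 did. In the list 2 fell, against 4.87% of all genes: the mitotic kinase Cdk1 (-0.77 ± 0.22) and the checkpoint kinase Bub1b (-0.72 ± 0.17). Cdk1 had 7.76, 8.64 and 8.14 on Nrp1-deleted arrays and 9.08, 8.68 and 9.09 on control arrays, with Nrp1-deleted replicate 2 close to the control arrays. Without that array 8 members of the list fell, and 1 fell without control replicate 1 or 3 or without Nrp1-deleted replicate 1 or 3. It was 4 without control replicate 2. Of 20 glycolysis and hypoxia genes 3 fell, the enzymes Hk1 (-0.41 ± 0.10) and Pfkl (-0.46 ± 0.14) and the peptide hormone Adm (-0.92 ± 0.26). Averaging probe sets left Hk1 at -0.14 and Pfkl at -0.16, neither called, and 1 of the 3 was left without control replicate 1 or Nrp1-deleted replicate 3.

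The remaining lists held few calls. Irf4, a factor of activated lymphocytes and type 2 dendritic cells, rose by 1.18 ± 0.33, the RNA sensor gene Ifih1 by 0.43 ± 0.10 and the integrin chain Itgb2 of the leukocyte gate list by 0.36 ± 0.09. Fcgrt, the neonatal Fc receptor, fell by 0.70 ± 0.19, and Hadh, an enzyme of fatty acid oxidation, by 0.32 ± 0.10. All 5 of these calls ended without control replicate 3. Those of Irf4, Itgb2, Fcgrt and Hadh ended also without control replicate 1 or Nrp1-deleted replicate 1, those of Irf4, Ifih1 and Hadh without Nrp1-deleted replicate 3, and those of Fcgrt and Hadh without Nrp1-deleted replicate 2. Of 28 chemokine genes none was called by limma (3 at an unadjusted p under 0.05), nor was any of 17 interferon gamma response genes (2), 12 MHC class I processing genes (3), 21 respiratory chain genes (2), 11 B cell genes (1) or 7 eosinophil genes (0). The respiratory chain mean was 10.25, 10.29 and 10.17 on Nrp1-deleted arrays and 10.23, 10.25 and 10.27 on control arrays.

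Ligands and receptors related to neuropilin-1 moved in both directions. Nrp2, the closest relative of Nrp1, had 7.75, 8.01 and 7.60 on Nrp1-deleted arrays, against 7.25, 6.53 and 7.15 on control arrays, a 1.75-fold higher level (0.81 ± 0.16, adjusted p = 0.00245). It was 1 of 24 neuropilin, plexin and semaphorin genes to rise, and its groups were apart. The other probe set of Nrp2 gave 0.40, at 7.46, 7.56 and 7.08 on Nrp1-deleted arrays and 7.14, 6.70 and 7.05 on control arrays, with overlap, and the mean of both was 0.61, still called. The 3 that fell were ligands: Sema3c (-1.07 ± 0.26), Sema3a (-0.74 ± 0.17) and the growth factor Vegfb (-0.73 ± 0.18), of which 1 was left without Nrp1-deleted replicate 3. Sema3c overlapped, at 4.23, 3.45 and 3.44 on Nrp1-deleted arrays and 4.18, 5.07 and 5.08 on control arrays, and its other probe set gave -0.38. Sema3a was dim on Nrp1-deleted arrays and at 3.70 to 3.94 on control arrays, and its other probe sets gave 0.08 and -0.48. Of 14 TGF-beta pathway genes, 1 fell, the ligand Tgfb3 (-1.28 ± 0.30, adjusted p = 0.00924), at 6.16, 6.20 and 6.59 on Nrp1-deleted arrays and 7.47, 7.82 and 7.50 on control arrays. The signal transducer Smad4 (0.58 ± 0.11) and Itgav, an integrin chain that activates latent TGF-beta (0.47 ± 0.10), rose.

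Among the 15 largest rises, several were transcripts with little coding sequence or probe sets that stand alone for their gene. Lncpint, a long noncoding RNA, had the largest rise, at 5.90, 6.74 and 7.29 on Nrp1-deleted arrays and 4.35, 4.18 and 4.57 on control arrays, a 4.83-fold higher level (2.27 ± 0.42, adjusted p = 0.00125). Kcnq1ot1, the imprinted antisense transcript of Kcnq1, had 6.08, 6.40 and 6.23 on Nrp1-deleted arrays and 4.57, 4.16 and 4.46 on control arrays (1.84 ± 0.26, adjusted p = 0.000124). Its 6 probe sets gave differences of -0.12 to 1.93. It overlaps Kcnq1 on the opposite strand, and which strand its probe sets read is not stated.

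Ranbp2, a nuclear pore protein, had 6.67, 6.97 and 7.28 on Nrp1-deleted arrays, against 4.88, 5.15 and 5.59 on control arrays (1.77 ± 0.24, adjusted p = 7.54e-05). Malt1, the paracaspase of lymphocyte receptor signalling, had 8.23, 8.71 and 8.72 on Nrp1-deleted arrays, against 6.69, 7.05 and 7.08 on control arrays (1.62 ± 0.24, adjusted p = 0.0002). Groups were apart in both, and 3 probe sets of Malt1 rose by 0.32, 1.51 and 1.62. Probe sets disagreed for Nr2c2, a nuclear receptor, at 2.15 and -0.37, and for Kansl1, a chromatin regulator, at 1.85, 0.18 and -0.27. With probe sets averaged, Nr2c2 stood at 0.89 and Kansl1 at 0.59, both still called. Camk4, a kinase of T cells, rose by 1.81 ± 0.39, and averaging probe sets ended its call (0.54, adjusted p = 0.146). The others were Mirt1 (1.81 ± 0.35), Plcxd2 (1.68 ± 0.28), Insyn2a (1.63 ± 0.35) and Dmkn (1.62 ± 0.48). The 2 other probe sets of Insyn2a gave 0.12 and 0.05, and their mean with the first was 0.60, still called. The Dmkn call ended without control replicate 1 or 3 or Nrp1-deleted replicate 1 or 2.

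Some control probe sets differed between the groups, 18S being higher and bioB lower on Nrp1-deleted arrays. The mean of the 18S ribosomal RNA probe sets was 12.12, 12.16 and 11.91 on Nrp1-deleted arrays and 11.70, 11.81 and 11.89 on control arrays, without overlap. That of the bioB hybridisation control was 7.61, 7.33 and 7.48 on Nrp1-deleted arrays and 7.82, 7.89 and 7.69 on control arrays. The difference between 3′ and 5′ probe sets, a sign of RNA integrity, was 0.35 to 0.40 for actin on Nrp1-deleted arrays and 0.33 to 0.40 on control arrays. The abundant nuclear noncoding RNA Malat1, looked at after the largest rises were seen, had 7.80, 8.26 and 8.47 on Nrp1-deleted arrays and 7.58, 7.64 and 7.34 on control arrays (0.66, adjusted p = 0.0624), and Neat1 differed by -0.11 (adjusted p = 0.772). Whether the shifts of the control probe sets had a part in the rises was not tested.

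The same genotypes were compared in MC38 tumours at days 6 and 18 and in B16 tumours at day 12, each with 2 arrays a side and with controls of its own. Col6a2 differed by -3.52 at day 12, by -2.47 at day 6 and by -2.16 at day 18. Ccn1 differed by -2.90 at day 12, by -2.41 at day 6 and by -2.30 at day 18. In B16 tumours at day 12 Col6a2 differed by 0.24 and Ccn1 by -0.29. At day 6, 508 genes were called (2.97%), 168 higher (0.983%) and 340 lower (1.99%). At day 18, 917 were called (5.36%), 534 higher (3.12%) and 383 lower (2.24%). In B16 at day 12, 2900 were called (17%), 1333 higher (7.8%) and 1567 lower (9.17%). Of the fibroblast list, 11 members fell at day 12, 11 at day 6 and 11 at day 18 in MC38, and none was called in B16 at day 12 (2 at an unadjusted p under 0.05), where the list median was 0.07. The test of the difference between tumours passed for 1984 genes (11.6%), 904 of them more negative in MC38 (5.29%), and for 10 of the 18 members, all further below in MC38.

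The other matrix and adhesion lists were less uniform. Of the 21 matrix and collagen modification genes, 8 fell at day 12, 7 at day 6 and 1 at day 18 in MC38, with medians of -0.48, -0.49 and -0.39. In B16 at day 12 they fell as well, 7 of 21 with a median of -0.36, and in the test between tumours 5 were more negative and 3 more positive in MC38. Of the 14 YAP/TAZ and adhesion genes, 6 fell at day 12, 4 at day 6 and 4 at day 18 in MC38, with medians of -0.88, -0.93 and -0.56. In B16 at day 12, 4 fell with a median of -0.56, and 2 were more negative and 2 more positive in MC38 by the test.

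Of the 635 genes higher in MC38 at day 12, 581 lay above 0 at day 6 (91.5%, against 41.3% of all genes) and 607 at day 18 (95.6%, against 39.8%). Of the 833 lower genes, 734 lay below 0 at day 6 (88.1%, against 58.7% of all genes) and 746 at day 18 (89.6%, against 60.2%). Called in the same direction at both times were 102 higher genes at day 6, which is 16.1% of the day 12 and 60.7% of the day 6 calls, and 279 at day 18, which is 43.9% of the day 12 and 52.2% of the day 18 calls. Among lower genes these were 138 at day 6 (16.6% of day 12 and 40.6% of day 6 calls) and 168 at day 18 (20.2% of day 12 and 43.9% of day 18 calls). A single gene, Tuba1a, was called in the other direction, at day 18.

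Few tests of the difference between days passed. The MC38 day 12 arrays belong to another set of arrays by the shape of their values than those of days 6 and 18, so day and array set cannot be told apart in these tests. The day 12 effect minus the day 6 effect passed for 1 gene (0.00585% of genes; 1297 at an unadjusted p under 0.05), Il5, the eosinophil growth factor, which falls outside the naming rule because it is dim at day 12. It differed by -0.30 at day 12 and by 1.44 at day 6, a difference of effects of -1.74 (adjusted p = 0.0467). The day 12 effect minus the day 18 effect passed for 1 gene (0.00585%; 1206 at an unadjusted p under 0.05), the tubulin gene Tuba1a. Tuba1a had 9.74, 9.42 and 9.69 on Nrp1-deleted arrays and 9.84, 10.06 and 10.08 on control arrays at day 12 (-0.37 ± 0.08, adjusted p = 0.00383), and differed by 0.39 at day 18. With 2 arrays a side on the other days, small differences between days can be missed. Cholesterol synthesis genes had a median of -0.62 at day 12, -0.17 at day 6 and -0.21 at day 18, with 8 members called lower at day 12 and none at days 6 and 18 (0 and 2 at an unadjusted p under 0.05). No member passed the test of a difference between days, with 5 at an unadjusted p under 0.05 against day 6 and 2 against day 18.

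**Figure D5:**
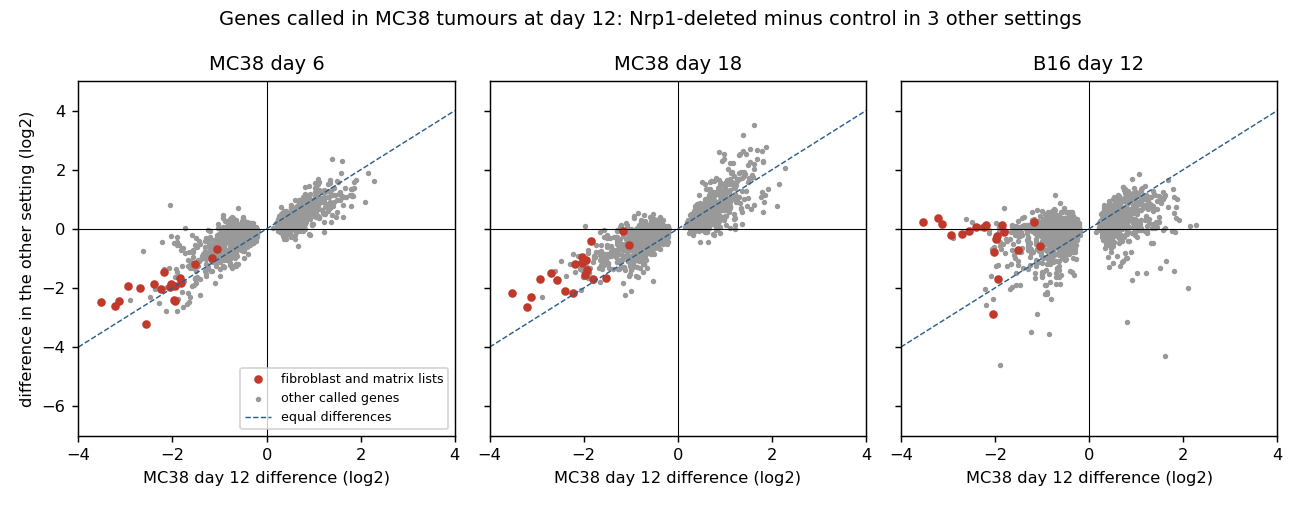
Nrp1-deleted minus control difference (log2) of the 1468 genes called in MC38 tumours at day 12 (x axis) against the difference in MC38 tumours at day 6, MC38 tumours at day 18 and B16 tumours at day 12 (y axes), with fibroblast and matrix list members in red and a dashed line where both are equal. Fibroblast and matrix members that fell at day 12 lie below 0 on both other MC38 days, while in B16 they lie on both sides of 0.

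B16 tumours at day 12 differed from MC38 tumours at day 12 for 1984 genes (11.6% of genes), 1080 with a more positive effect in MC38 (6.32%) and 904 with a more negative one (5.29%). The arrays of the B16 day 12 groups belong to another set of arrays by the shape of their values, so tumour and array set cannot be told apart in this test. Several macrophage genes were among the 5 largest positive differences, and these fell in B16 and were not called in MC38. Pf4, a chemokine of platelets and macrophages, differed by -0.17 in MC38 and -6.59 in B16 (difference 6.42 ± 0.78, adjusted p = 4.13e-06). Arg1 differed by 0.24 in MC38 and -6.18 in B16, Dab2, an endocytic adaptor, by -0.01 and -6.16, and Mrc1 by 0.22 and -5.78. All 16 macrophage genes passed this test. On the negative side stood Col6a2 (-3.76 ± 0.39), Col6a1 (-3.57 ± 0.41), Col5a2 (-3.29 ± 0.46) and Aqp1 (-2.95 ± 0.38), which fell in MC38 alone of these 2 settings, and Spry1, a feedback inhibitor of receptor kinases. Spry1 differed by -0.30 in MC38 and by 2.64 in B16. T cell genes had medians of 0.93 in MC38 and 0.96 in B16, and none of the 15 passed the test of the difference (0 at an unadjusted p under 0.05).

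Same-sign shares in B16 were lower than on the other MC38 days. Of the 635 higher genes 519 lay above 0 in B16 at day 12 (81.7%, against 56% of all genes), and of the 833 lower genes 494 lay below 0 (59.3%, against 44%). Both settings called 226 genes higher, 35.6% of the MC38 and 17% of the B16 calls, and 141 lower, 16.9% of the MC38 and 9% of the B16 calls. Against these, 29 higher and 30 lower genes of MC38 were called the other way in B16. Dmkn was among the largest of such differences, with 1.62 in MC38 and -4.31 in B16 (adjusted p = 7.64e-06 for the difference). Cholesterol synthesis genes fell in both, with 8 calls and a median of -0.62 in MC38 and 12 calls and a median of -1.04 in B16, and 2 members passed the test of the difference.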

How the data were processed

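RNA of CD45+ cells sorted from tumours was amplified in 2 cycles and hybridised to 1-colour Affymetrix HT MG-430 PM arrays, per the labels' protocols. The authors deposited log2 values, for which the submitters' processing notes name RMA and Partek 6.6. For each of 17097 genes the brightest probe set, by its mean over the 28 arrays, was kept, from 28898 probe sets annotated to 1 gene, while 551 with several genes and 15588 unnamed ones were set aside. By the shape of their values the arrays form 3 sets, and MC38 day 12 shares one with B16 day 18. A model of 12 group means over 28 arrays was fitted with limma 3.58.1 in R 4.3.3 (eBayes with an intensity trend, Benjamini-Hochberg over all genes). In simulated data for the day 12 comparison (17097 genes), log2 changes of 0.5, 1 and 2 were recovered at 40.3%, 94% and 100%. These changes were given to 67, 67 and 66 genes, and 6.59% of calls were false. The rates hold for the simulated spread only, and those of the real arrays were not tested. Real spread could differ between groups, with standard deviations of 0.56 on Nrp1-deleted and 1.05 on control arrays for Bcl11b. For Col6a2 these were 0.47 on Nrp1-deleted and 0.14 on control arrays. A permutation test of 3 arrays against 3 cannot go below p = 0.1, so none was used. The number of arrays limits the precision. Named genes are Nrp1, the 15 largest non-overlapping rises and falls above the median value, up to 4 members of each list by adjusted p, the 5 largest of each difference of effects and a few fixed genes. Further list members, Il5, Malat1 and Neat1 were named after their values were seen. The genes, lists and tests were chosen with earlier results of these data known. The alternatives changed the probe set rule, the filter on dim genes, the scaling, the variance model and the arrays in the fit. Promoter sequences are from RefSeq. Tables were made with Python 3.11.15, numpy 2.4.6 and pandas 2.3.3, and plots with matplotlib 3.10.9.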

Additional observations from a re-analysis of the deposited data

Results flagged for a closer look

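Tests of the difference between settings passed for 1 gene against MC38 at day 6, 1 gene against MC38 at day 18 and 1984 genes against B16 at day 12. Il5 differed by -1.74 against day 6 and Tuba1a by -0.76 against day 18, each as the day 12 effect minus the other. The values against B16 that follow are the MC38 effect minus the B16 effect at day 12 on the log2 scale, and tumour and array set cannot be told apart in them.

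More negative in MC38 were the collagen genes Col6a2 (-3.76), Col6a1 (-3.57), Col5a2 (-3.29), Col3a1 (-2.73), Col5a1 (-2.49) and Col4a2 (-2.33). Other matrix and adhesion genes were Ccn1 (-2.60), Dcn (-2.50), Postn (-2.47), Matn2 (-2.46), Cav1 (-2.31) and Thbs2 (-2.30). Aqp1 (-2.95), Spry1 (-2.94) and Osr1 (-2.73) completed that side.

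More positive in MC38 were Pf4 (6.42), Arg1 (6.42), Dab2 (6.15), Mrc1 (6.01), the chitinase-like gene Chil4 (5.99) and Dmkn (5.94). Of the largest rises at day 12, Insyn2a (2.70), Lncpint (2.15), Nr2c2 (2.04), Ranbp2 (1.85), Malt1 (1.59) and Kcnq1ot1 (1.48) were also more positive in MC38. Groups of 3 arrays are too small to test a single array as an outlier.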

How the results depend on the processing

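The number of genes called at day 12 depends on which arrays estimate the spread. It was 1468 as reported, 723 (330 higher, 393 lower) with only the 6 arrays in the fit and 732 (337 higher, 395 lower) with the 12 arrays of MC38 day 12 and B16 day 18. Replicate numbers were not used to pair the arrays in the main fit. Deviations of same-numbered arrays correlated at -0.09, -0.16 and -0.21, and those of other pairs at -0.02 to 0.16. With 3 arrays a group these values cannot show whether arrays are paired. The fit with the replicate block on 6 arrays called 105 genes (32 higher, 73 lower). Leaving out 1 array left 733 to 1552 calls, 303 to 730 higher and 430 to 822 lower. Of the 1468 calls, 645 were also called with 6 arrays only and 684 without control replicate 3, and no shared call turned direction under any alternative. Of 104 named genes called as reported, 88 were called with probe sets averaged, 97 after cyclic loess, 63 with 6 arrays only, 33 with the block and 69 to 98 without 1 array. None of the 15 largest falls lost its call under any alternative that tested it. Nrp1 (-0.32) had an adjusted p of 0.042 with 6 arrays only, and -0.36 to -0.28 without 1 array.

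Differences between day 12 and day 6 passed for 0 genes with either filter on dim genes, with no intensity trend and with array weights, for 2 with probe sets averaged, and for 0 to 3 without 1 array. Those between day 12 and day 18 passed for 0 genes with probe sets averaged, with the 75th percentile and with no intensity trend, and for 0 to 5 without 1 array. Against B16 1607 to 1950 genes passed without 1 array.

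The genes that changed sign under an alternative were all uncalled, and the cause was not tested. With probe sets averaged these were Acaca (0.245), Dab2 (0.249), Cd36 (-0.0664), Eif2s3y (-0.0271) and Xist (0.0030). Cd163 turned to 0.0751 after cyclic loess, 0.0180 with the 75th percentile and 0.0178 with array weights, and Dab2 to 0.0206 with the 75th percentile and 0.0113 with array weights. After cyclic loess Fap turned to 0.0342, Fbln2 to 0.0049, Krt7 to 0.0186 and Foxp3 to 0.0339. With array weights Cxcl9 turned to -0.0206. Without 1 array the values ran from -0.0916 to 0.0525 for Cd163, -0.117 to 0.308 for Cd274, -0.210 to 0.288 for Cd36, -0.163 to 0.136 for Cxcl9, -0.235 to 0.137 for Foxp3, -0.412 to 0.0035 for Gp9, -0.242 to 0.585 for Gzmb and -1.89 to 0.663 for Hba-a1. They ran from -0.279 to 0.0950 for Irf7, -0.122 to 0.437 for Mrc1, -0.274 to 0.541 for Nos2, -0.126 to 0.401 for Pacsin1, -0.0043 to 0.946 for Ppbp, -0.157 to 0.0177 for Prdm1, -0.229 to 0.842 for Prf1 and -0.827 to 0.0012 for Xcr1. For Cldn3 they ran from -0.268 to 0.0187, for Dab2 from -0.139 to 0.117, for Fap from -0.192 to 0.104, for Fbln2 from -0.121 to 0.0368, for Krt7 from -0.171 to 0.120, for Neat1 from -0.260 to 0.0023 and for Pf4 from -0.614 to 0.262.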
